A study of Mus musculus with 12 samples.

Results

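PDGFRA+ cells and GAL1+ cells, each sorted together with EGFR from the same mouse glioblastomas (GBMs), were compared gene by gene. The comparison uses 6 of the 12 libraries of the series, namely the PDGFRA+ and the GAL1+ library of each of 3 tumors, T3, T4 and T5, chosen by their labels, and all 18180 genes of the deposited table. The tumors arose in the striatum of adult mice whose alleles included conditional overexpression of human EGFR, constitutive loss of Cdkn2a and a conditional luciferase reporter, all of which the PDGFRA+ and GAL1+ groups share, on a mixed background (Balb/cJ, SJL, FVBN/J, 129S4 and C57Bl/6J). A Cre lentivirus injected into the brain switched on the transgenes, its promoter not being given in the sources used here, and the same tumors also gave the PDGFRA- and GAL1- libraries. Cells of end-stage tumors were stained for EGFR with PDGFR or with Galectin-1, sorted, and their RNA was sequenced in bulk from 1 ng of total RNA. Each library is 1 population of 1 tumor, and whether a cell counted as EGFR+ PDGFRA+ could also carry Galectin-1 was not measured, so the populations are not known to be exclusive of each other.

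PDGFRA is the receptor tyrosine kinase that PDGF ligands activate. In the brain it marks oligodendrocyte progenitor cells (OPCs), which divide throughout life, carry a coat of chondroitin sulfate proteoglycans and receive synapses from neurons. Galectin-1, the product of *Lgals1*, is a small lectin that binds galactose-containing glycans inside and outside cells. It is made by reactive glia, mesenchymal-like tumor cells, endothelium and macrophages, and has been linked to immune suppression. In GBM, tumor cell states resembling OPCs and mesenchymal cells are commonly set apart, and the mesenchymal state is known for its company of macrophages.

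Reads recovered from the table ran from 10768492 to 18522549 in PDGFRA+ libraries and from 13788453 to 17486645 in GAL1+ libraries. Levels are given as log2 CPM, counts of a gene scaled to its library's total, and a difference as a log2 fold change, positive where PDGFRA+ cells were higher, with its standard error (SE), from limma's moderated test with the tumor as a block. *Pdgfra* stood at 10.81, 10.13 and 9.95 in PDGFRA+ cells of T3, T4 and T5 and 8.95, 6.74 and 7.05 in GAL1+ cells. Every PDGFRA+ library was above every GAL1+ library, with a log2 fold change of 2.72 (SE 0.41, adjusted p = 0.00199). *Lgals1* stood at 6.41, 6.85 and 7.25 in PDGFRA+ cells of T3, T4 and T5 and 7.95, 7.64 and 7.41 in GAL1+ cells, and the libraries did not overlap, although T5 differed by only −0.16. Its log2 fold change was −0.83 (SE 0.22, adjusted p = 0.0186). *Egfr*, for which both sorts selected, was at 10.50, 10.11 and 9.93 in PDGFRA+ cells of T3, T4 and T5 and 9.02, 8.53 and 7.68 in GAL1+ cells, a log2 fold change of 1.77 (SE 0.32, adjusted p = 0.00370). The annotation is of the mouse, so reads of the human EGFR transgene that aligned to mouse *Egfr* cannot be told apart from its own. *Ptprc*, which encodes the leukocyte protein CD45, was found in all 6 libraries, at 6.11, 7.33 and 7.31 in PDGFRA+ cells of T3, T4 and T5 and 8.21, 8.74 and 9.0 in GAL1+ cells. The study describes the sorted cells as CD45-, and its account of this sort names no CD45 antibody. In bulk RNA, fewer cells of a type and less RNA per cell cannot be told apart. Leaving out T3, T4 and T5 in turn, 2, 3 and 4 of the 4 called genes named here passed. Without T3 the calls of *Lgals1* and *Ptprc* were lost (adjusted p = 0.175 and 0.110), and without T4 that of *Lgals1* (0.0863).

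**Figure D1:**
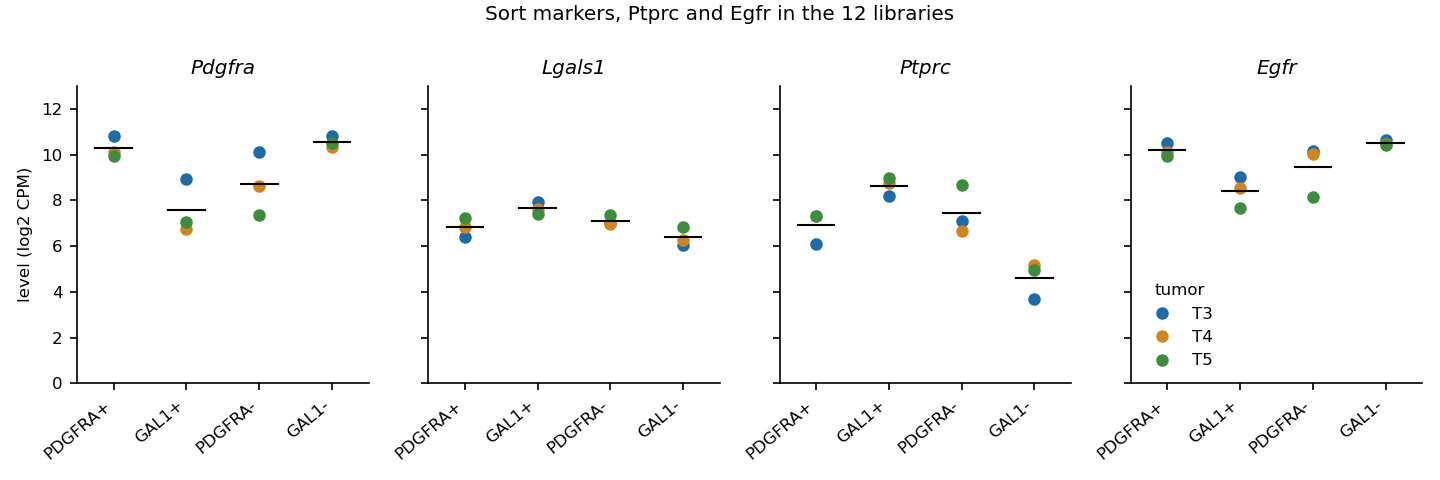
Level (log2 CPM) of *Pdgfra*, *Lgals1*, *Ptprc* and *Egfr* in each library of the 4 sorted populations, 1 point per tumor, with a bar at the mean of 3 tumors. PDGFRA+ libraries lie above GAL1+ libraries for *Pdgfra* and *Egfr* and below them for *Lgals1* and *Ptprc*, and the PDGFRA- and GAL1- libraries are shown to place the values.

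At a Benjamini-Hochberg adjusted p under 0.05, limma's test called 6900 of 18180 genes (38.0%), 3803 higher (20.9%) and 3097 lower (17.0%) in PDGFRA+ than in GAL1+ cells. Of the called genes, 6896 went 1 way in each of the 3 tumors. The genes called higher had the larger differences, with a median log2 fold change of 1.27 against −0.90 for those called lower, and 730 of them against 66 differed more than 4-fold. The 3 libraries of a population did not overlap with those of the other for 46.0% of all genes. The median log2 fold change over all genes was 0.01. Centring each library on its median lowered the fold change of all genes by about the same amount, to a median of −0.15, and turned the split into 3038 higher and 4408 lower. Without the tumor block 3154 genes were called, 2215 higher and 939 lower, and with T3 left out 2110, 1813 higher and 297 lower.

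The 10 genes with the largest fold change in PDGFRA+ cells, among called genes with a mean of at least 3 log2 CPM, were mostly genes of neurons and neural progenitors. They included *Nell2* (2.87), *Asic1* (2.82), *Neu4* (2.80), *Nsg2* (2.79), *Chrna4* (2.78), *Ap3b2* (2.77), *Scg5* (2.76), *Dab1* (2.75) and *Nrxn2* (2.74). *Nell2* encodes a secreted guidance protein, *Asic1* an acid-sensing ion channel, *Chrna4* a nicotinic acetylcholine receptor subunit and *Neu4* a sialidase of the oligodendrocyte lineage. *Nrxn2*, a presynaptic adhesion molecule and the one of these with the highest mean level, was at 8.43, 8.02 and 7.98 in PDGFRA+ cells of T3, T4 and T5 and 6.68, 4.72 and 4.79 in GAL1+ cells. T3 had the smallest difference for each of the 10 genes. The 10 with the largest fold change in the other direction were mostly genes of myeloid cells, namely *Clec4e* (−2.35), *Mefv* (−2.30), *Ccr2* (−2.27), *Ms4a4c* (−2.25), *Cxcl3* (−2.20), *F10* (−2.18), *F13a1* (−2.07), *Slfn4* (−2.07), *Clec5a* (−2.06) and *Klra2* (−2.03). *Clec4e* encodes the receptor Mincle, *Mefv* the inflammasome protein pyrin, *Ccr2* the chemokine receptor of inflammatory monocytes, and *F10* and *F13a1* coagulation factors made by monocytes. *Clec4e* stood at 3.81, 2.92 and 3.56 in PDGFRA+ cells of T3, T4 and T5 and 6.34, 5.33 and 5.68 in GAL1+ cells, without overlap. Of called genes, those with the highest log2 CPM, which also grows with transcript length, included *Scd2* (0.99), *Akap12* (1.43), *Ptprz1* (2.13), *Qk* (0.40) and *Jun* (0.55) on the higher side and *Apoe* (−1.42), *Actb* (−0.66), *Cd74* (−1.38) and *Ctss* (−1.66) on the lower side. *Actb*, often used as a reference gene, had differences of −0.78, −0.54 and −0.66 in T3, T4 and T5, but a log2 fold change of 0.18 after quantile normalization, which did not pass. The test without T3, without T4 and without T5 called 12, 27 and 22 of the 28 named genes that passed with all tumors.

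OPC genes were higher in PDGFRA+ cells throughout. All 25 genes of the OPC identity list, *Pdgfra* included, were called higher, against 20.9% of all genes, and none overlapped between the populations, where 46.0% of all genes did not overlap. *Pdgfra* was the gene of the sort, so it is no finding of its own. The median log2 fold change was 2.22, and 1.48, 2.81 and 2.60 in T3, T4 and T5. The largest were *Neu4* (2.80), *Olig1* (2.67), *Cntn1* (2.63) and *Cspg5* (2.57) beside *Pdgfra*, and the smallest was *Enpp6* (1.31), a gene of newly formed oligodendrocytes. *Olig1*, a transcription factor of the oligodendrocyte lineage, was at 9.53, 8.97 and 9.06 in PDGFRA+ cells of T3, T4 and T5 and 7.86, 5.50 and 6.18 in GAL1+ cells, with the smallest difference in T3. *Cspg5*, which encodes the proteoglycan neuroglycan C, was at 8.83, 8.71 and 8.67 in PDGFRA+ cells of T3, T4 and T5 and 7.12, 5.72 and 5.65 in GAL1+ cells. The mean over the 25 genes ran from 6.36 to 6.80 in PDGFRA+ and from 3.85 to 5.28 in GAL1+ libraries, from 5.71 to 6.62 in PDGFRA- and from 6.95 to 7.02 in GAL1- libraries, so the GAL1+ cells held the lowest levels of the 4 populations, and the library of T3 the highest of the GAL1+ ones. Of the proteoglycans and other components of the perineuronal matrix, 11 of 14 measured genes were called higher (78.6%, all genes 20.9%) and 0 lower. The median was 1.70. *Tnr* (2.57), *Cspg5* (2.57), *Bcan* (2.39), *Ncan* (2.23) and *Acan* (2.17) led. *Bcan*, *Ncan* and *Acan* encode the hyalectans brevican, neurocan and aggrecan, and *Tnr* encodes tenascin-R, which cross-links them. *Bcan* was at 9.03, 8.59 and 8.46 in PDGFRA+ cells of T3, T4 and T5 and 7.60, 5.89 and 5.43 in GAL1+ cells. The genes that did not pass were *Has2* (0.74), *Tnc* (0.55) and *Hapln2* (−0.19), and *Hapln1* and *Has3* had no row in the table. Of the 10 called genes named here, 10 passed with T3 left out, 10 with T4 left out and 9 with T5 left out.

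Fewer genes of mature oligodendrocytes were called. Of 25 genes, 12 were called higher (48.0%) and 1 lower (4.0%), against 20.9% and 17.0% of all genes. The median was 0.53, and the members ranged from −1.55 to 2.54. Those called higher were led by *Ugt8a* (2.54), *Nkx6-2* (2.29), *Opalin* (2.08), *Fa2h* (1.99) and *Cldn11* (1.75). *Ugt8a* and *Fa2h* encode enzymes that make myelin galactolipids, and *Nkx6-2* a transcription factor that oligodendrocytes share with progenitors. *Ugt8a* stands in both lists. Among structural myelin genes, *Mbp* (0.52), *Mag* (0.45) and *Mobp* (0.31), chosen after their values were seen, did not pass. They do not stand for the class, since *Cldn11*, also a structural gene of myelin, was called higher. *Mbp*, myelin basic protein, stood at 6.99, 6.67 and 7.01 in PDGFRA+ cells of T3, T4 and T5 and 6.35, 6.30 and 6.45 in GAL1+ cells. The gene called lower was *Trf* (−1.43), which encodes transferrin, and *Aspa* (−1.55) had the lowest fold change, not called. Of 22 astrocyte genes, 12 were called higher (54.5%) and 2 lower (9.09%), against 20.9% and 17.0% of all genes. The median was 1.26. Higher were *Ntsr2* (3.12), *Acsbg1* (2.39), *Slc1a2* (2.34), *Clu* (2.14) and *Aldoc* (2.08), among them the glutamate transporter gene *Slc1a2*. Lower were *Apoe* (−1.42) and *Glul* (−1.05), the genes of apolipoprotein E and glutamine synthetase, which macrophages also express. *Gfap* and *Aldh1l1*, common astrocyte markers chosen after their values were seen, did not pass, with 0.22 and 0.16. Leaving out T3, T4 and T5 in turn, 9, 10 and 6 of the 13 called genes named here passed.

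Transcription factors of neural stem and progenitor cells were higher in PDGFRA+ cells, and so were early neuronal genes. Of 19 stem and progenitor genes, 13 were called higher (68.4%) and 1 lower (5.26%), against 20.9% and 17.0% of all genes. The median was 1.57, and 1.02, 1.69 and 2.10 in T3, T4 and T5. The largest were *Nr2e1* (2.70), *Sox3* (2.58), *Lhx2* (2.48), *Pou3f3* (2.27) and *Pou3f2* (2.26), all transcription factors of the developing or adult neural stem cell. *Nr2e1*, which encodes the orphan receptor TLX that keeps neural stem cells dividing, was at 3.18, 2.27 and 2.71 in PDGFRA+ cells of T3, T4 and T5 and 1.55, −2.03 and 0.54 in GAL1+ cells. In GAL1+ cells of T4 its value is below that of 3 reads (−1.85), so the size of its fold change is uncertain. *Btg2* (−1.23), an antiproliferative gene that is also an immediate early gene, was the one called lower. Of 19 genes of neuroblasts and early neurons, 12 were called higher (63.2%, all genes 20.9%) and 0 lower, with a median of 1.59. *Dcx* (2.49), *Elavl4* (2.47), *Elavl3* (2.41), *Nrxn3* (2.36) and *Sox11* (2.25) were the largest, and *Stmn1* (0.19) had the smallest fold change. *Dcx*, which encodes the microtubule protein doublecortin of migrating neuroblasts, stood at 5.12, 5.35 and 5.34 in PDGFRA+ cells of T3, T4 and T5 and 3.64, 1.87 and 2.82 in GAL1+ cells. Genes of mature neurons were partly higher, with 5 of 15 measured genes called higher (33.3%, all genes 20.9%) and 0 lower. Those called were *Syn1* (2.34), *Syn2* (2.32), *Snap25* (2.18), *Camk2b* (1.96) and *Gad1* (1.96). The glutamatergic marker *Slc17a7* (−0.59) and *Camk2a* (−0.63) did not pass, and *Slc17a6*, *Slc32a1* and *Nefh* had no row in the table. Summed over the mature neuron list, the level ran from 8.15 to 8.50 log2 CPM in PDGFRA+ and from 6.80 to 7.57 in GAL1+ libraries. Its part in the neuronal genes above was not tested. The test without T3, without T4 and without T5 called 15, 16 and 16 of the 16 named genes that passed with all tumors.

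Receptors and channels that make cells excitable formed a large group of genes higher in PDGFRA+ cells. Of 38 voltage-gated and potassium channel genes, 33 were called higher (86.8%) and 1 lower (2.63%), against 20.9% and 17.0% of all genes. The median log2 fold change was 2.06. *Cacng4* (2.72), *Kcnk1* (2.72) and *Kcnd3* (2.60) were among the largest. *Cacng4*, which encodes a partner of AMPA receptors, stood at 8.33, 7.86 and 7.82 in PDGFRA+ cells of T3, T4 and T5 and 6.50, 4.55 and 4.80 in GAL1+ cells. Of 21 measured glutamate receptor genes, 14 were called higher (66.7%, all genes 20.9%) and 0 lower, with a median of 1.84. They covered the kainate, AMPA, NMDA, delta and metabotropic classes, with *Grid1* (2.45), *Grin3a* (2.44), *Grm5* (2.33), *Grik4* (2.30) and *Grin1* (2.20) the largest. *Grin1*, the subunit common to all NMDA receptors, was at 3.03, 2.86 and 2.71 in PDGFRA+ cells of T3, T4 and T5 and 1.48, 0.10 and 0.41 in GAL1+ cells, and *Grm3* (−0.15) had the smallest fold change. Among 12 measured GABA and glycine receptor genes, 7 were called higher (58.3%, all genes 20.9%) and 0 lower. *Gabra3* (2.62), *Gabrg1* (2.29), *Gabbr2* (2.11) and *Glrb* (2.10) were the largest, and *Gabra5* and *Gabrd* had no row in the table. Axon guidance genes were split, with 47.7% called higher and 9.09% lower, against 20.9% and 17.0% of all genes. Of 44 measured genes, 21 were called higher, with *Unc5a* (2.91), *Unc5c* (2.62), *Sema5b* (2.55), *Dcc* (2.32) and *Ntn1* (2.08) the largest, and 4 lower, including *Sema4d* (−1.20), *Nrp2* (−1.08) and *Nrp1* (−1.04). *Ntn1* encodes the ligand netrin-1, and *Unc5a*, *Unc5c* and *Dcc* encode its receptors. RNA of the ligand and of 3 of its receptors was thus higher in the same sorted population. Whether single cells held both was not measured. *Dcc* stood at 5.29, 5.22 and 4.92 in PDGFRA+ cells of T3, T4 and T5 and 3.75, 2.33 and 2.38 in GAL1+ cells and *Ntn1* at 6.93, 6.71 and 6.74 in PDGFRA+ cells of T3, T4 and T5 and 5.75, 4.14 and 4.24 in GAL1+ cells. *Sema4d* encodes a semaphorin of lymphoid and myeloid cells, and *Nrp1* and *Nrp2* encode neuropilins, which macrophages and endothelial cells carry. Of the 20 called genes named here, 15 passed with T3 left out, 20 with T4 left out and 19 with T5 left out.

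**Figure D2:**
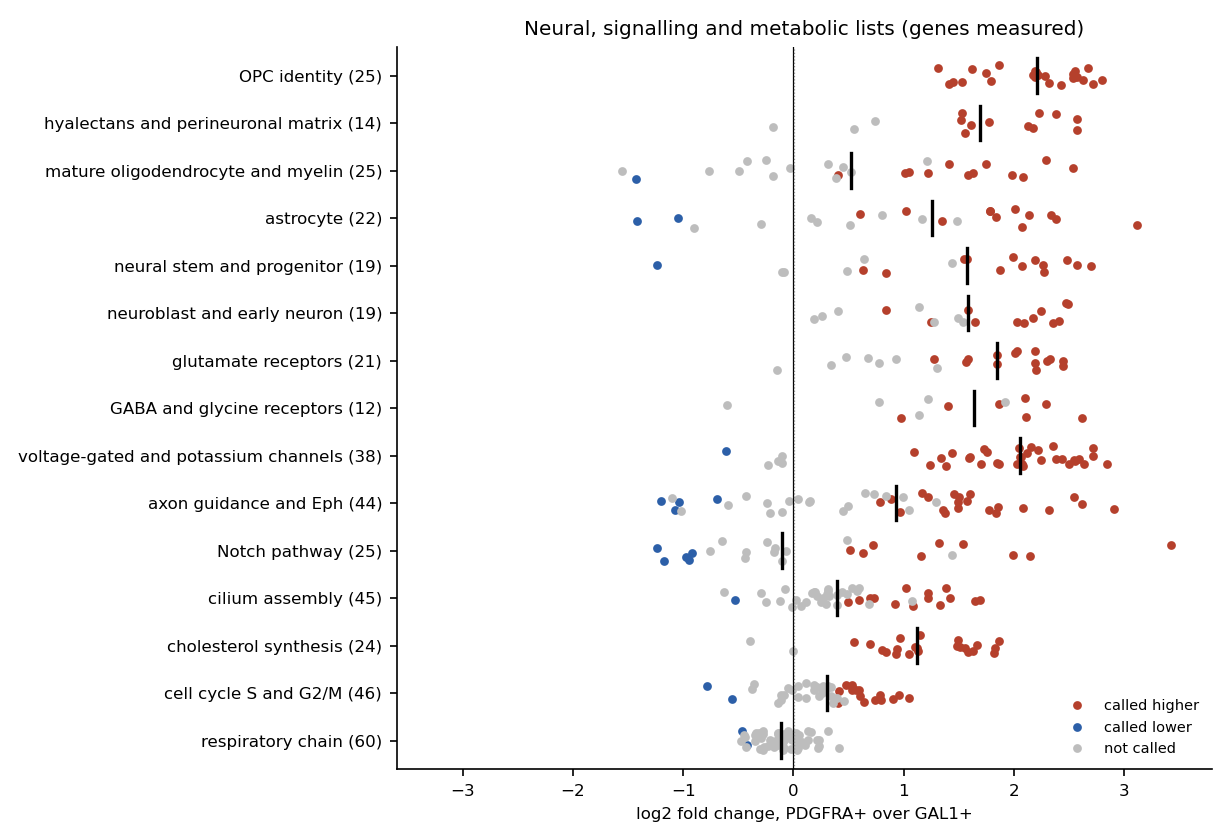
Log2 fold change, PDGFRA+ against GAL1+, of each gene of the neural, signalling and metabolic lists, with the number of measured genes in brackets, coloured by whether the adjusted p was under 0.05. Black bars mark list medians, from 2.22 for OPC identity to −0.11 for the respiratory chain, and the dotted line marks the median of all genes.

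Notch pathway genes were called in both directions, those lower at a share near that of all genes. Notch receptors on one cell are activated by Delta and Jagged ligands on another. Of 25 genes, 9 were called higher and 5 lower, and the median was −0.10, but 0.062 with T5 left out. Without T3, 3 were called higher and 0 lower. Higher were *Dll3* (3.43), *Dner* (2.15) and *Dll1* (2.0), which are ligands or ligand-like proteins, and lower were *Mfng* (−1.24), *Notch2* (−1.18), *Jag1* (−0.97), *Rbpj* (−0.95) and *Lfng* (−0.92), namely 2 Fringe glycosyltransferases, a receptor, a Jagged ligand and the transcription factor through which all Notch receptors act. *Dll3* had 175 to 467 reads in PDGFRA+ and 6 to 123 in GAL1+ libraries, so the size of its fold change rests on few reads in GAL1+ cells. *Dll1* stood at 4.12, 4.15 and 4.60 in PDGFRA+ cells of T3, T4 and T5 and 2.86, 2.04 and 1.97 in GAL1+ cells and *Jag1* at 6.25, 6.58 and 6.76 in PDGFRA+ cells of T3, T4 and T5 and 7.44, 7.30 and 7.78 in GAL1+ cells. *Notch1*, chosen after its value was seen, was called higher with 0.52 (adjusted p = 0.049), opposite to *Notch2*. The call of *Notch1* was lost without T3, without T5, without the tumor block and after centring (adjusted p = 0.235, 0.126, 0.125 and 0.126). That of *Notch2* was lost without T3 and without the tumor block (0.0842 and 0.0748). Genes of cilium assembly had a median of 0.39 over 45 measured genes. Called higher were 14 (31.1%) and lower 1 (2.22%), against 20.9% and 17.0% of all genes. *Tctn2* (1.69), *Foxj1* (1.65), *Bbs1* (1.42), *Cc2d2a* (1.39) and *Kif17* (1.34) were the largest, *Foxj1* being the master regulator of motile cilia and the others parts of the primary cilium or its traffic, and *Cep290* (−0.53), a transition zone gene, was lower. Cholesterol synthesis moved almost as a block. Of 24 measured genes, 22 were called higher (91.7%, all genes 20.9%) and 0 lower. The median was 1.13, and 0.98, 1.38 and 1.22 in T3, T4 and T5. *Fdft1* (1.87), *Lss* (1.83), *Sqle* (1.83), *Acat2* (1.67) and *Idi1* (1.63) were the largest, enzymes from the start of the pathway to the closing of the sterol rings. *Sqle*, squalene epoxidase, stood at 6.94, 6.35 and 6.10 in PDGFRA+ cells of T3, T4 and T5 and 5.53, 4.20 and 4.18 in GAL1+ cells, without overlap. The remaining genes were *Pmvk* (−0.003), phosphomevalonate kinase, and *Ebp* (−0.39), sterol isomerase, which did not pass. The regulator *Srebf2*, chosen after its value was seen, was called higher with 1.05. Leaving out T3, T4 and T5 in turn, 13, 21 and 17 of the 21 called genes named here passed.

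The EGFR family and its ligands were measured with 13 of 15 listed genes. Of these, 4 were called higher in PDGFRA+ cells (30.8%, all genes 20.9%) and 0 lower. Among the receptors, *Erbb4* had the largest log2 fold change, 2.45 (SE 0.32, adjusted p = 0.00147), at 6.18, 5.93 and 6.20 in PDGFRA+ cells of T3, T4 and T5 and 4.61, 2.60 and 3.76 in GAL1+ cells. *Egfr* followed with 1.77. *Erbb2*, the partner without a ligand of its own, had −0.31 and *Erbb3*, the partner without an active kinase, 0.63, and neither passed. *Erbb3* was at 6.16, 5.96 and 5.89 in PDGFRA+ cells of T3, T4 and T5 and 4.57, 7.63 and 3.92 in GAL1+ cells, so GAL1+ cells of T4 exceeded the other PDGFRA+ and GAL1+ libraries. Among the ligands, transforming growth factor alpha, *Tgfa*, was at 7.85, 7.44 and 7.43 in PDGFRA+ cells of T3, T4 and T5 and 6.60, 6.23 and 5.15 in GAL1+ cells and did not overlap. Its log2 fold change was 1.58 (SE 0.26, adjusted p = 0.00251). The methods list 1 virus that carries a TGFA sequence with Cre and 1 with Cre alone, and do not say which one made these tumors, so viral and endogenous *Tgfa* reads cannot be told apart. The neuregulin *Nrg2* (1.22), a ligand of ERBB4 and ERBB3, was also called higher. The other ligands did not pass, with *Ereg* (0.91), *Egf* (0.40), *Nrg1* (0.21), *Hbegf* (0.04), *Areg* (−0.16), *Btc* (−0.47) and *Nrg4* (−1.77). *Nrg4* was listed with 2 to 14 reads in PDGFRA+ and 14 to 36 in GAL1+ libraries, so its value rests on few reads. Interval estimates for these are wide, from −0.92 to 1.01 at 95% confidence for *Hbegf* and from −1.39 to 1.07 for *Areg*, and a difference of 2-fold in either direction lies inside that of *Areg*. *Epgn* and *Nrg3* had no row in the table. The test without T3, without T4 and without T5 called 3, 4 and 4 of the 4 named genes that passed with all tumors. The call lost was that of *Nrg2* (adjusted p = 0.0723).

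Other receptor tyrosine kinases and their ligands moved in both directions. Of 36 measured receptors and ligands, 15 were called higher (41.7%) and 8 lower (22.2%), against 20.9% and 17.0% of all genes. Higher were *Pdgfra* (2.72), *Ntrk3* (2.39) and *Ret* (2.09), the latter pair being neurotrophin and GDNF receptors, and lower were *Igf1* (−1.77), *Mertk* (−1.57), *Csf1r* (−1.56), *Hgf* (−1.54) and *Pdgfb* (−1.25). *Csf1r* is the receptor that keeps macrophages and microglia alive, *Mertk* a receptor by which they take up dead cells, and *Igf1* and *Hgf* are growth factors that macrophages make. *Pdgfb*, a PDGF ligand, was at 4.02, 5.29 and 4.82 in PDGFRA+ cells of T3, T4 and T5 and 5.61, 6.25 and 6.01 in GAL1+ cells. Pan-leukocyte genes moved the same way as these receptors and ligands, with a median of −1.57, and their part in the result was not tested. Of 24 genes that report output of the MAP kinase pathway below EGFR and PDGFRA, 12 were called higher in PDGFRA+ cells and 4 lower. Their median was 0.56. The share of these 24 genes called lower was near the 17.0% of all genes, and the share called higher was above the 20.9%. Without the tumor block 4 of the 24 were called higher and 1 lower. The largest were *Spry1* (1.84), *Etv4* (1.84), *Spry2* (1.70), *Spred3* (1.34) and *Egr1* (1.32). Sprouty and Spred proteins restrain the pathway that induces them, and *Etv4* and *Egr1* encode transcription factors that it induces. *Spry1* stood at 6.91, 6.71 and 6.42 in PDGFRA+ cells of T3, T4 and T5 and 5.55, 4.95 and 4.04 in GAL1+ cells. Lower were the phosphatase gene *Dusp5* (−0.93) and the AP-1 genes *Fosl2* (−0.61) and *Junb* (−0.59), and *Dusp6*, a phosphatase specific for ERK and chosen after its value was seen, had −0.11 and did not pass. Immediate early genes were also split. Of 27, 6 were called higher (22.2%) and 15 lower (55.6%), against 20.9% and 17.0% of all genes, with a median of −0.57. Those higher were led by *Npas4* (2.22), *Arc* (1.51) and *Egr1* (1.32), which depolarization induces in neurons, and those lower by *Btg2* (−1.23), *Nr4a2* (−1.23), *Nr4a3* (−1.17), *Atf3* (−1.14) and *Dusp1* (−1.14). *Npas4* had 304 to 996 reads in PDGFRA+ and 52 to 294 in GAL1+ libraries. *Egr1* stood at 9.62, 9.36 and 9.04 in PDGFRA+ cells of T3, T4 and T5 and 8.61, 7.91 and 7.54 in GAL1+ cells, and *Nr4a2*, an orphan nuclear receptor, at 5.12, 5.96 and 5.63 in PDGFRA+ cells of T3, T4 and T5 and 6.66, 7.07 and 6.67 in GAL1+ cells. Of the 23 called genes named here, 12 passed with T3 left out, 22 with T4 left out and 17 with T5 left out. With T3 left out, 1 of the 27 immediate early genes was called lower and 3 higher.

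**Figure D3:**
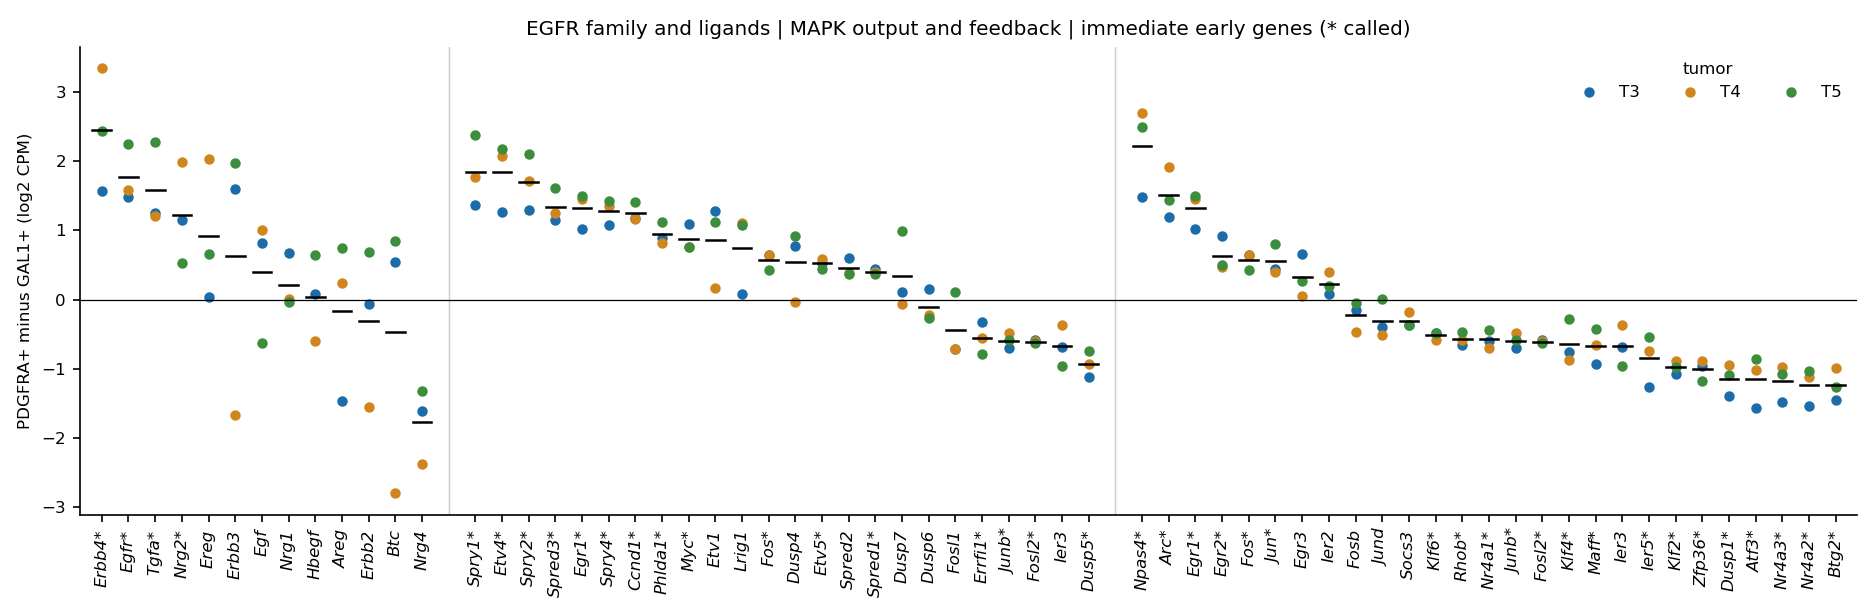
Difference of PDGFRA+ minus GAL1+ level (log2 CPM) in each tumor for every measured gene of 3 lists, EGFR family and ligands, MAPK output and feedback, and immediate early genes. Points are tumors, bars the fitted log2 fold change, and asterisks mark genes with an adjusted p under 0.05. The points of *Erbb3*, *Erbb2*, *Btc* and *Areg* lie on both sides of 0.

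Genes of leukocytes had lower levels in the PDGFRA+ libraries, by nearly the same factor for each gene. Of 16 pan-leukocyte genes, 15 were called lower, against 17.0% of all genes. The libraries of the populations overlapped for none of the 16, where 46.0% of all genes did not overlap. The log2 fold changes of the 16 genes ran from −1.73 for *Ptprc* to −1.35 for *Coro1a*, with a median of −1.57. Behind *Ptprc* came *Cd53* (−1.70), *Arhgdib* (−1.68), *Lcp1* (−1.62) and *Cd48* (−1.60). In T3 the median was −2.10, in T4 −1.13 and in T5 −1.42. The mean of the 16 genes ran from 4.91 to 6.19 log2 CPM in PDGFRA+, from 7.06 to 7.39 in GAL1+, from 5.03 to 7.08 in PDGFRA- and from 1.99 to 3.44 in GAL1- libraries, so PDGFRA+ libraries lay between the GAL1- and the GAL1+ ones. Genes of monocyte-derived macrophages had a median of −1.81. Of 19 measured genes, 16 were called lower (84.2%) and 1 higher (5.26%), against 17.0% and 20.9% of all genes. *Ccr2* (−2.27), *Ms4a4c* (−2.25), *F10* (−2.18), *F13a1* (−2.07) and *Ly6c2* (−2.01) were the largest, and *Vcan* (1.52), the gene of the proteoglycan versican, which OPCs also express, was the one called higher. Microglia genes had a median of −1.53, and 42.9% of those measured were called lower, against 17.0% of all genes. Of 14 measured genes 6 were called lower, and the measured members included *Gpr34* (−1.82), *P2ry12* (−1.78), *P2ry13* (−1.63), *Cx3cr1* (−1.56), *Csf1r* (−1.56), *Fcrls* (−1.55), *Tmem119* (−1.50), *Olfml3* (−1.41), *Siglech* (−1.37), *Ltc4s* (−1.32), *Sting1* (−0.82), *Sparc* (−0.60) and *Sall1* (−0.29). *P2ry12*, the purinergic receptor that marks resting microglia, stood at 3.61, 4.58 and 4.32 in PDGFRA+ cells of T3, T4 and T5 and 5.68, 6.01 and 6.18 in GAL1+ cells. These calls rest on the contrast within tumors. With T3 left out, 0 of 16 pan-leukocyte, 1 of 19 macrophage and 1 of 14 microglia genes were called lower, with T4 left out 16, 14 and 10, and with T5 left out 3, 11 and 3. Without the tumor block they were 4, 5 and 1. The list medians kept their sign in each of these fits.

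Receptors for the constant part of antibodies and related receptors that signal through the same adaptors were among the most uniformly lower. All 21 genes had a log2 fold change between −2.06 and −1.23, with a median of −1.73. Called lower were 18 (85.7%, against 17.0% of all genes). *Clec5a* (−2.06), *Treml4* (−2.04), *Lilr4b* (−1.96), *Fcgr2b* (−1.89) and *Lilrb4a* (−1.82) were the largest and *Hcst* (−1.23) the smallest. *Lilr4b* and *Lilrb4a* are near-identical neighbours whose shared reads the counting split, so their values are not independent. *Fcgr2b*, the inhibitory receptor, stood at 5.21, 6.48 and 7.15 in PDGFRA+ cells of T3, T4 and T5 and 7.59, 8.08 and 8.85 in GAL1+ cells. The adaptor genes *Tyrobp* and *Fcer1g*, which carry the signalling motif for these receptors and were chosen after their values were seen, were called lower with −1.56 and −1.70. With T3 left out 0 of the 21 genes were called, with T4 left out 18 and with T5 left out 9, and the range of the list median over these fits was −1.91 to −1.39. The promoters of these genes were searched for several short motifs, as were those of all the other gene lists. The letters GGAAGT, the core that ETS transcription factors such as PU.1 bind, were searched on both strands in the 250 bases before the RefSeq start of GRCm38.p6. Of the 21 genes, 17 had a RefSeq promoter, and 11 of these (64.7%) held the letters, against 25.8% of the 12224 promoters of all genes in the table. Among lists with a RefSeq promoter for at least 80% of members, this list had the highest share with GGAAGT. The share is thus the highest of many that were counted, and it was not tested. GGAAGT is at times part of longer motifs of other factors, and a match is a description of letters. The windows below are those of the 4 members with a match and the highest level in GAL1+ cells. Each holds 100 bases, runs 5′ to 3′ and ends at the base before the start, with GGAAGT or its reverse complement ACTTCC in capitals.
Fcgr2b (chr1:170976072-170976171, minus strand): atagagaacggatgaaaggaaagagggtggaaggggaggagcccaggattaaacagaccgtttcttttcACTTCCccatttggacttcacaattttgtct
Fcgr1 (chr3:96293970-96294069, minus strand): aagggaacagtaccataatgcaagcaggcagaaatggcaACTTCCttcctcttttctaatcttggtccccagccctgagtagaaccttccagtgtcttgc
Cd300lf (chr11:115133993-115134092, minus strand): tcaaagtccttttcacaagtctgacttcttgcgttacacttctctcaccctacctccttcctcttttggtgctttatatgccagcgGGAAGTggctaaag
Fcgr4 (chr1:171018826-171018925, plus strand): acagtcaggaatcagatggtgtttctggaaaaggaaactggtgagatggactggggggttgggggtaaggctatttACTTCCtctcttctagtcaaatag
In *Cd300lf* the match lay 8 bases before the start, in *Fcgr4* 18, in *Fcgr2b* 25 and in *Fcgr1* 55. The log2 fold changes of these genes were −1.77, −1.78, −1.89 and −1.73.

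Genes by which innate immune cells sense microbes and damage were lower in PDGFRA+ cells as well. Of 27 Toll-like and C-type lectin receptor genes and their adaptors, 23 were called lower (85.2%) and 1 higher (3.7%). The shares of all genes were 17.0% and 20.9%, and the list's median was −1.55. *Clec4e* (−2.35), *Tlr8* (−1.92), *Clec4d* (−1.82), *Clec4n* (−1.81) and *Tlr1* (−1.80) led. The adaptor *Tirap* (0.55) was called higher, and *Tlr5* (0.40) and *Tlr3* (−0.46), the latter the sensor of double-stranded RNA that glia also express, did not pass. Of 21 measured complement genes, 14 were called lower (66.7%, all genes 17.0%) and 0 higher, and the median was −1.49. The largest were the receptor genes *C3ar1* (−1.89) and *C5ar1* (−1.81), the protease gene *Cfb* (−1.78), the complement receptor subunit *Itgam* (−1.67) and the inhibitor *Cd59a* (−1.61). *C3*, the central component and chosen after its value was seen, was called lower with −1.60, while *C4b*, which reactive glia also make, had the highest fold change of the list, 0.33, and did not pass. *C5*, *Cfi*, *Cfd* and *Vsig4* had no row in the table. Neutrophil genes had a median of −1.54 over 24 measured of 35 listed genes, with 17 called lower (70.8%, all genes 17.0%). *Fpr2* (−2.25), *Ltf* (−2.12), *Clec5a* (−2.06), *Cybb* (−1.78) and *Mmp8* (−1.75) were the largest and *Lcn2* (−0.07) the smallest. The most specific neutrophil genes, *Mpo*, *Elane*, *Prtn3*, *Ctsg*, *Camp* and *Ly6g*, had no row in the table, and several measured members, such as *Cybb*, which encodes the oxidase of phagocytes, are shared with macrophages. *Ltf*, lactoferrin, had 0 to 46 reads in PDGFRA+ and 12 to 47 in GAL1+ libraries. Lysosome genes, which every cell uses and phagocytes use most, were called lower in 26 of 33 cases (78.8%, all genes 17.0%). Their median was −1.37. *Ctsc* (−1.73), *Ctsh* (−1.68), *Ctss* (−1.66) and *Cd68* (−1.66) led, and the acid glucosidase *Gaa* (−0.27) had the smallest fold change. Genes of lipid-laden myeloid cells were called lower in 18 of 23 measured cases (78.3%, all genes 17.0%). Among them were *Ch25h* (−2.03), *Cd36* (−1.87), *Msr1* (−1.81), *Igf1* (−1.77) and *Lgals3* (−1.71), and *Fabp5* (−0.02) stood at the other end of the list. *Cd36*, a scavenger receptor for lipids, stood at 5.25, 5.99 and 6.29 in PDGFRA+ cells of T3, T4 and T5 and 7.70, 7.31 and 8.14 in GAL1+ cells. The pan-leukocyte median of −1.57 stands beside the medians of these lists, and the part of leukocyte RNA in them was not tested. With T3 left out, 3 of the 27, 0 of the 21, 0 of the 24, 3 of the 33 and 2 of the 23 genes were called lower. With T5 left out these counts were 14, 7, 8, 17 and 11.

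Genes of antigen presentation were lower in PDGFRA+ cells, those of class II with the larger median. Called lower were 83.3% of class II and 47.1% of class I genes, against 17.0% of all genes. MHC class II, carried by professional antigen-presenting cells, was called lower in 10 of 12 genes with a median of −1.30, and the members were *Ctss* (−1.66), *Ifi30* (−1.48), *H2-Aa* (−1.45), *H2-DMb1* (−1.41), *Cd74* (−1.38), *H2-DMb2* (−1.35), *H2-Eb1* (−1.25), *H2-Ab1* (−1.22), *H2-DMa* (−1.17), *Ciita* (−1.09), *H2-Ob* (−1.03) and *H2-Oa* (−0.84). *H2-Aa*, the alpha chain of the class II molecule I-A, was at 7.73, 9.35 and 10.04 in PDGFRA+ cells of T3, T4 and T5 and 9.32, 10.58 and 11.58 in GAL1+ cells. Within each tumor PDGFRA+ cells were lower, yet the populations did not overlap for only 2 of the 12 genes, against 46.0% of all genes, and class II levels varied between tumors. MHC class I, present on most cells, had a median of −0.41, with 8 of 17 genes called lower and 0 higher. *Tapbp* (−1.04), *B2m* (−0.85), *Pdia3* (−0.79), *Erap1* (−0.76) and *H2-T23* (−0.66) were the largest, parts of the peptide loading complex and the light chain among them, and the class I regulator *Nlrc5* (0.12) had the highest fold change. Reads of the similar H2 class I genes were split by the counting, and their single values are uncertain. Genes induced by interferon ranged more widely than leukocyte genes, from −1.76 to 0.84 with an SD of 0.63, against an SD of 0.10 over the pan-leukocyte genes. Of 34 genes, 18 were called lower (52.9%) and 1 higher (2.94%), against 17.0% and 20.9% of all genes. Their median was −0.71. *Cxcl9* (−1.76), *Oas2* (−1.72), *Rsad2* (−1.49), *Oasl1* (−1.46) and *Irf7* (−1.42) were the largest, the chemokine, antiviral enzymes and the transcription factor that amplifies type I interferon, while *Irgm1* (0.84), a GTPase induced by interferon gamma, was called higher. The other 15 did not pass. *Cxcl9* stood at 4.68, 5.24 and 6.15 in PDGFRA+ cells of T3, T4 and T5 and 6.82, 6.52 and 8.0 in GAL1+ cells. Checkpoint genes also went both ways, with 57.7% called lower and 11.5% higher, against 17.0% and 20.9% of all genes. Of 26 measured genes, 15 were called lower, with *Arg1* (−1.83), *Cd86* (−1.70), *Cd274* (−1.68), *Havcr2* (−1.64) and *Cd80* (−1.56) the largest, and 3 higher, *Cd276* (1.22), *Nt5e* (0.97) and *Tnfsf9* (0.87). *Cd274*, which encodes PD-L1, the ligand of PD-1 on T cells, was at 5.11, 6.29 and 7.09 in PDGFRA+ cells of T3, T4 and T5 and 7.35, 7.61 and 8.57 in GAL1+ cells, with a log2 fold change of −1.68 (SE 0.33, adjusted p = 0.00475). *Cd276*, which encodes the B7-H3 protein found on glioma cells, was at 5.93, 5.39 and 4.94 in PDGFRA+ cells of T3, T4 and T5 and 4.80, 4.68 and 3.12 in GAL1+ cells. *Nt5e* encodes CD73, which makes adenosine, and *Entpd1*, the enzyme CD39 that acts before it and was chosen after its value was seen, was called lower with −1.44. With T3 left out, 0 of 12 class II, 2 of 17 class I, 1 of 34 interferon and 0 of 26 checkpoint genes were called lower. With T5 left out they were 0, 5, 20 and 9.

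**Figure D4:**
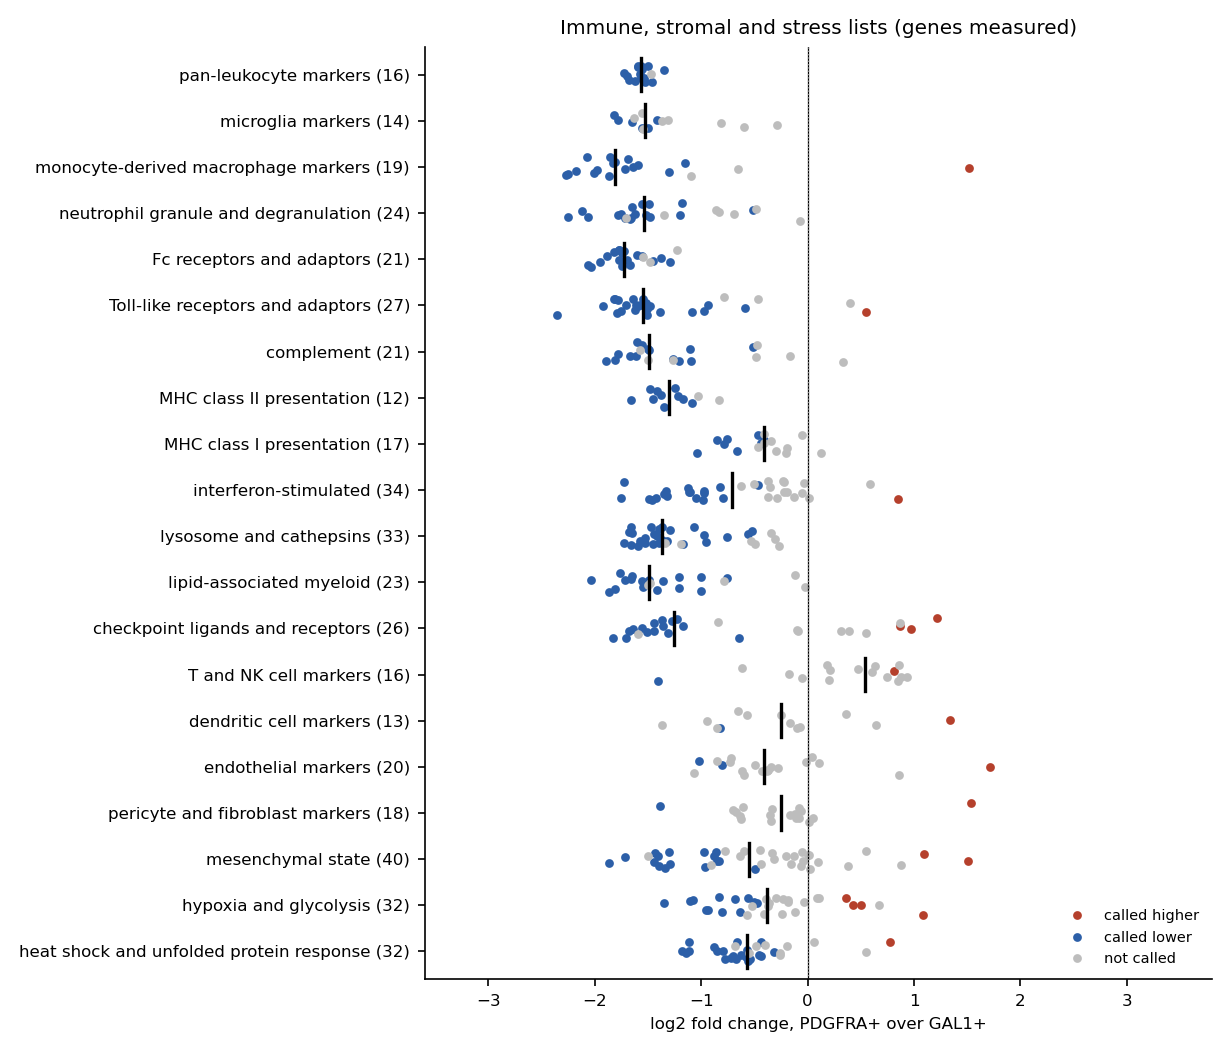
Log2 fold change, PDGFRA+ against GAL1+, of each gene of the immune, stromal and stress lists, with the number of measured genes in brackets, coloured by whether the adjusted p was under 0.05. Black bars mark list medians. The pan-leukocyte genes lie in a narrow band around −1.57, whereas T and NK cell genes have a median of 0.54 and the interferon and checkpoint lists are spread out.

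Markers of cell types other than myeloid cells were called in few cases. In each list of this paragraph the share called higher was under the 20.9% of all genes. The share called lower was under their 17.0%. T and NK cell genes had a median of 0.54 over 16 measured genes, of which *Lck* (0.81) was called higher and *Klrb1c* (−1.40) lower. Of the list's members above 3 log2 CPM in 3 libraries the median was −0.61. *Cd3g*, *Cd3d* and *Cd8a*, chosen after their values were seen, had 0.88, 0.85 and 0.93 and did not pass. Summed over the list, levels ran from 5.69 to 5.87 log2 CPM in PDGFRA+ and from 5.71 to 6.18 in GAL1+ libraries, so RNA of these genes was found in both. *Trbc2*, *Gzma*, *Ncr1* and *Prf1* had no row in the table. Of 10 B cell genes 3 were measured, *Igkc* (1.93), *Ighm* (−1.20) and *Cd22* (−1.48), none of which passed, and *Cd79a* and *Ms4a1* had no row. Dendritic cell genes had a median of −0.25, with *Fscn1* (1.34), which tumor cells also express, called higher and *Bst2* (−0.82) lower among 13 measured genes. Endothelial genes had a median of −0.41. Of 20 genes, *Mfsd2a* (1.72) was called higher and *Slco1a4* (−1.02) and *Eng* (−0.80) lower, and the summed level ran from 8.03 to 9.09 in PDGFRA+ and from 8.70 to 9.23 in GAL1+ libraries. *Cldn5* and *Pecam1*, defining endothelial genes chosen after their values were seen, had −0.28 and −0.73 and did not pass. Pericyte and fibroblast genes had a median of −0.25, with *Cspg4* (1.53), which OPCs share with pericytes, called higher and *Anpep* (−1.39) lower among 18. Of 7 measured erythrocyte and platelet genes, *Pf4* (−1.58) was called lower, a platelet gene that macrophages express too, and the globin genes did not pass. Leaving out T3, T4 and T5 in turn, 2, 8 and 6 of the 10 called genes named here passed.

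Mesenchymal state genes were lower in PDGFRA+ cells in part. Of 40 measured genes, *Lgals1* included, 16 were called lower and 2 higher, against 17.0% and 20.9% of all genes. The median was −0.55, and −0.61, −0.74 and −0.26 in T3, T4 and T5. *Tgfbi* (−1.87), *Lgals3* (−1.71), *Plaur* (−1.45), *Anxa5* (−1.43) and *Cebpb* (−1.41) were the largest. All 5 are known from tumor-associated macrophages as well as from mesenchymal GBM cells, and *Tgfbi* also stands in the macrophage list. *Lgals3*, which encodes Galectin-3, was at 4.58, 5.58 and 6.64 in PDGFRA+ cells of T3, T4 and T5 and 7.27, 7.02 and 7.66 in GAL1+ cells. Called higher were *Zeb1* (1.51) and *Serpine2* (1.10), *Zeb1* being a repressor that drives epithelial to mesenchymal transition and is also found in neural progenitors. Of structural mesenchymal genes, *Vim*, vimentin, chosen after its value was seen, had −0.16, or 0.35 after quantile normalization, and did not pass. It stood at 10.34, 10.30 and 10.47 in PDGFRA+ cells of T3, T4 and T5 and 10.66, 10.67 and 10.26 in GAL1+ cells, and the populations overlapped. *Spp1*, osteopontin, had −1.51 and did not pass either (adjusted p = 0.198), chosen likewise. Hypoxia and glycolysis genes had a median of −0.38. Of 32 genes, 12 were called lower and 4 higher, against 17.0% and 20.9% of all genes. The share called higher was thus below that of all genes. Lower were *Ndrg1* (−1.35), *Mxi1* (−1.11), *Hk2* (−1.08), *Slc16a3* (−0.95) and *P4ha2* (−0.94), among them hexokinase 2 and the lactate exporter MCT4, and higher were *Slc2a3* (1.08), *Hk1* (0.50) and *Ddit4* (0.42), among them the neuronal glucose transporter GLUT3 and hexokinase 1. *Slc2a1*, the gene of GLUT1 and chosen after its value was seen, was called lower with −0.83. With all tumors, the 2 hexokinase genes and the 2 glucose transporter genes were thus called in opposite directions. The calls of *Hk1* and *Slc2a1* were lost without T3 (adjusted p = 0.125 and 0.152) and without T4 (0.0577 and 0.0518). That of *Hk2* was lost without T3 (0.109), and that of *Ddit4* with any 1 tumor left out. *Hk1* stood at 7.43, 7.10 and 6.81 in PDGFRA+ cells of T3, T4 and T5 and 6.97, 6.53 and 6.33 in GAL1+ cells, and *Hk2* at 6.98, 7.39 and 7.20 in PDGFRA+ cells of T3, T4 and T5 and 8.26, 8.36 and 8.19 in GAL1+ cells. *Vegfa*, a classic hypoxia target chosen likewise, had −0.37 and did not pass. Matrix genes had a median of −0.17 over 47 genes. Called higher were 10 (21.3%) and lower 8 (17.0%), near the 20.9% and 17.0% of all genes. Among those called lower were the secreted metalloproteinase genes *Mmp19* (−1.80), *Mmp8* (−1.75), *Mmp12* (−1.66) and *Mmp13* (−1.46), with *Col6a3* (−1.01). Among those called higher were *Timp4* (2.56), *Mmp15* (2.36) and *Col9a3* (2.18), the middle one a metalloproteinase anchored in the membrane. *Mmp12*, macrophage elastase, was at 2.98, 3.68 and 5.23 in PDGFRA+ cells of T3, T4 and T5 and 5.25, 5.24 and 6.39 in GAL1+ cells. Leaving out T4 turned the sign of this list's median to 0.12. The leukocyte genes moved with the genes called lower here, and their part was not tested. Without T3, 4 of the mesenchymal and 0 of the hypoxia genes were called lower, with T4 left out 11 and 7, and with T5 left out 14 and 8. The test without T3, without T4 and without T5 called 7, 18 and 20 of the 24 named genes that passed with all tumors.

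Cell cycle and respiratory chain genes differed by small factors. Of the respiratory chain genes, 3.33% were called lower, against 17.0% of all genes. Of 46 cell cycle genes, 16 were called higher (34.8%) and 2 lower (4.35%), against 20.9% and 17.0% of all genes. Their median was 0.31. Higher were the mitotic genes *Cenpf* (1.05), *Cdc20* (0.96), *Ccnb1* (0.90), *Plk1* (0.79) and *Tpx2* (0.79), and lower were *E2f1* (−0.78) and *Pcna* (−0.56), which act before and during S phase. *Cenpf* stood at 7.93, 7.63 and 7.48 in PDGFRA+ cells of T3, T4 and T5 and 7.11, 6.50 and 6.29 in GAL1+ cells. *Mki67*, the gene of the Ki-67 antigen, chosen after its value was seen, had 0.19 with a 95% interval from −0.10 to 0.48, so a 1.5-fold difference lies outside the interval. 13 of the 46 genes had an interval within 1.5-fold in both directions. With T3, T4 or T5 left out, 5, 4 and 6 cell cycle genes were called higher, and without the tumor block 0. Centring libraries on their median lowered the list's median to 0.15. Respiratory chain genes were the most alike, with 60 of 60 measured, 0 called higher and 2 lower, *Sdhd* (−0.47) and *Ndufa6* (−0.42), a median of −0.11 and a range from −0.48 to 0.42. The interval lay within 1.5-fold for 42 of the 60, against 20.9% of all genes, so for these genes the data bound the difference.

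Chaperone genes and genes of the unfolded protein response were lower in PDGFRA+ cells. Of 32, 22 were called lower (68.8%) and 1 higher (3.12%), against 17.0% and 20.9% of all genes. The median was −0.57, and −0.62, −0.58 and −0.49 in T3, T4 and T5. *Edem1* (−1.18), *Atf3* (−1.14), *Hspa1b* (−1.12), *Hspa1a* (−1.12) and *Herpud1* (−0.88) were the largest, and *Asns* (0.78), asparagine synthetase, was the one called higher. *Hspa1a* and *Hspa1b* encode the same inducible HSP70 protein, and their shared reads were counted as fractions, which makes them 1 measurement. *Hspa1a* stood at 8.47, 9.50 and 11.10 in PDGFRA+ cells of T3, T4 and T5 and 10.30, 10.59 and 11.52 in GAL1+ cells. In PDGFRA+ cells T3 was lowest and T5 highest, and the populations overlapped. *Hspa5*, which encodes the endoplasmic reticulum chaperone BiP and was chosen after its value was seen, was called lower with −0.68. Without T3, 4 of the 32 were called lower, with T4 left out 11 and with T5 left out 17. Many promoters of this group hold a CCAAT box, which the factor NF-Y binds. The other gene lists were searched for the box too, and no share was tested. Of the 28 members with a RefSeq promoter, 19 (67.9%) held CCAAT or its reverse complement ATTGG in the 250 bases before the start, against 40.1% of promoters of all genes in the table. The promoters of the HSP70 pair (GRCm38.p6) show how alike these copies are, with the box in capitals and each window ending at the base before the start.
Hspa1a (chr17:34972157-34972256, minus strand): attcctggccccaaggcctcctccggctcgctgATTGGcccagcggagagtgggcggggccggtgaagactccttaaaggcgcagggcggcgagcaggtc
Hspa1b (chr17:34959239-34959338, minus strand): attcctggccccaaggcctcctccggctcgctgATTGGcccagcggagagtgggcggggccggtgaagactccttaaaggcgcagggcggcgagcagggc
Over these 100 bases the pair differed at 1 position, and the box lay 62 bases before the start in each.

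For some genes the difference varied widely between tumors. Among genes with a mean of at least 5 log2 CPM, the widest range of the difference over T3, T4 and T5 was that of *Adam23*, with 1.04, −1.64 and 2.04, followed by *Erbb3*, with 1.59, −1.66 and 1.98, *LOC118568479*, an unnamed locus, with 1.69, 0.50 and −1.91, *Thbs2*, with −0.57, −2.74 and 0.83, and *Fbln2*, with −0.83, −2.17 and 1.26. In each of the 5, the differences of T4 and T5 had opposite signs. *Thbs2* and *Fbln2* encode matrix proteins of fibroblasts and vessel walls, and *Thbs2* was at 5.16, 6.89 and 7.53 in PDGFRA+ cells of T3, T4 and T5 and 5.73, 9.63 and 6.70 in GAL1+ cells. Of the PDGFRA+ and GAL1+ libraries, GAL1+ cells of T4 had the highest value of *Adam23* and of *Erbb3*. *Cdkn2a*, a gene engineered in the model and chosen after its value was seen, was at 3.56, 3.73 and 3.94 in PDGFRA+ cells of T3, T4 and T5 and 2.80, 2.71 and 2.32 in GAL1+ cells and called higher with 1.13. Reads outside the deleted part of the gene are counted too, so the values do not measure how complete the deletion was.

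Genes called higher in PDGFRA+ cells also tended to be long. The median span, introns included, was 29.2 kb for genes called higher, 20.1 kb for genes called lower and 14.6 kb for the rest, with a RefSeq span for 98.3% of genes. Among 501 genes over 300 kb, 51.1% were called higher and 7.58% lower, with a median log2 fold change of 0.96. Among 3066 genes of up to 3 kb, 8.32% were called higher and 14.4% lower, with a median of −0.23. Genes of 100 to 300 kb were called higher at 34.1% and lower at 17.1%. Long genes are known to be frequent among neuronal adhesion, channel and receptor genes.

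**Figure D5:**
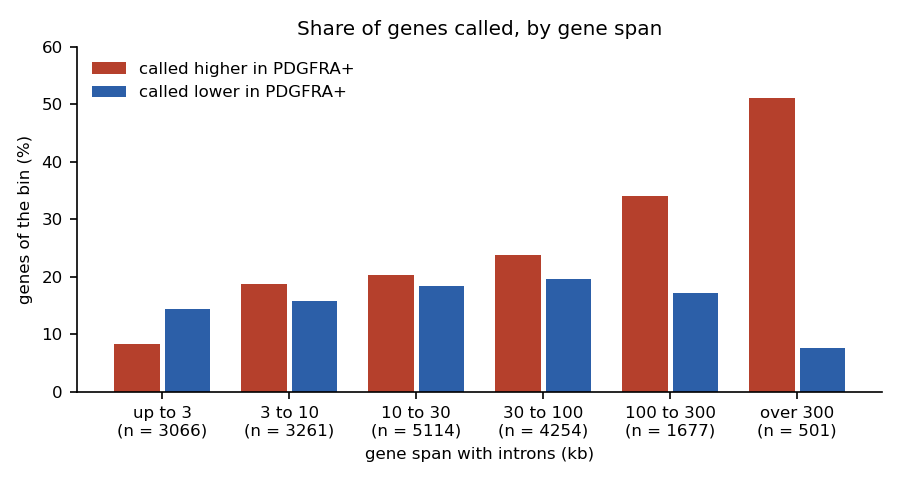
Share of genes (%) called higher or lower in PDGFRA+ cells in 6 bins of gene span (kb, introns included), with the number of genes under each bin. The share called higher grows from 8.32% in the shortest to 51.1% in the longest bin, and the share called lower is smallest in the longest bin, 7.58%.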

How the data were processed

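Bulk RNAseq was made from EGFR+ cells sorted into 4 populations from each of 3 tumors, 12 libraries in all, of which the 3 PDGFRA+ and 3 GAL1+ ones are compared here. The authors trimmed reads with fastp, aligned them with STAR to mm39, counted exon reads with featureCounts, multi-mapping reads as fractions, kept genes with CPM above 1 in at least 3 samples, and applied TMM and voom. The authors deposited 1 table of the resulting log2 CPM of 18180 genes, with an offset of 0.5. Whether counting used strand, and the tools' versions, are not given in the sources used here, so overlapping and antisense genes are uncertain. Library totals were recovered from the lowest deposited value, taken as 0 reads plus the offset, and ran from 9851175 to 24117541 over the 12 libraries. Only 41.7% to 59.4% of values were whole reads (tolerance 0.02), so no count model was used. Read numbers cover counting error only. All 12 libraries were fitted with limma 3.58.1, with population and tumor (the block) as terms, in R 4.3.3 (moderated test with trend, 6 residual and 3.49 prior degrees of freedom), two-sided, with Benjamini-Hochberg adjustment over all genes. Genes with an adjusted p under 0.05 were called. The tumor is the same animal, and its number comes from the labels. Deviations of the PDGFRA+ and GAL1+ library of a tumor from their group means correlated over genes at 0.539 (T3), 0.395 (T4) and 0.541 (T5), described over genes, which are not independent. The members and the 43 gene lists were chosen with earlier results of these data known, so counts over a list describe it and no list was tested. A list is given by its counts and median. Its counts are to be read against the 20.9% of all genes called higher and the 17.0% called lower, and its median against 0.01. Named genes are the sort markers with Ptprc and Egfr, the 10 largest log2 fold changes in each direction among called genes with a mean of at least 3 log2 CPM and the same direction in all tumors, predicted and unnamed genes left out, the 5 called genes of highest mean in each direction, up to 5 leading and 3 opposite called members of each list with its extremes, all members of lists of up to 15 genes, and the 5 genes with a mean of at least 5 log2 CPM that varied most over tumors. Others are said to be chosen after their values were seen. Members without a row are named only, and some genes that the rule names, and one allele of the model, are not reported here. Gene spans and promoters come from RefSeq (GRCm38.p6), matched by symbol or unique synonym, and the positions printed with a promoter are of that build, whereas the files use mm39. The fit was checked on simulated data with noise drawn independently for each gene, 200 of 18180 genes being changed in each of 5 runs. It called 10.1% of 1.5-fold, 40.3% of 2-fold and 73.7% of 4-fold changes, and 4.61% of its calls were unchanged genes. Far more genes were called in the data themselves, so these shares need not hold there. Alternatives were no block, the 6 libraries alone, eBayes without trend or robust, voom weights, a pseudocount of 1, filters at 1 and 3 log2 CPM, quantile normalization, median centring, stricter thresholds and each tumor left out, and, chosen after seeing the data, the PDGFRA- library of T5 left out. Figures were drawn with matplotlib 3.10.9.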

Additional observations from a re-analysis of the deposited data

How the results depend on the processing

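The number of genes called was within 1.5 times 6900 under each alternative but these. The fit without the tumor as a replicate block, against which the pairing by tumor was set, called 3154 genes. Leaving out 1 tumor or the PDGFRA- library of T5 gave 2110 to 7677, the lowest without T3, each tumor left out leaving 2 pairs. Stricter rules called 3700 (fold change over 2 added) and 3175 (adjusted p under 0.01), by construction. Centring on the library median shifted the median over all genes to −0.15 and quantile normalization to −0.07. Medians of gene lists kept their sign under each alternative except those of T and NK cell genes with the filter at 3, matrix genes without T4 and Notch genes without T5. Those that moved by more than their SD over tumors are given here, and the cause was not tested. With a pseudocount of 1 the medians were 1.08 for GABA and glycine receptors and −1.15 for neutrophil granule and degranulation. After quantile normalization the medians were 1.35 for GABA and glycine receptors, −0.26 for Notch pathway, 0.24 for cilium assembly, −0.17 for hypoxia and glycolysis, −0.13 for MHC class I presentation, −0.42 for dendritic cell markers, −0.008 for respiratory chain, −0.37 for heat shock and unfolded protein response and −0.31 for dissociation and immediate early. With the filter at 3 the medians were −0.17 for Notch pathway, 0.32 for cilium assembly, 0.77 for EGFR family and ligands, −0.61 for T and NK cell markers, −0.61 for dendritic cell markers, 1.96 for mature neuron markers and −1.58 for erythrocyte and platelet markers. After centring the medians were −0.26 for Notch pathway, 0.23 for cilium assembly, −0.54 for hypoxia and glycolysis, −0.57 for MHC class I presentation, −0.41 for dendritic cell markers, 0.15 for cell cycle S and G2/M, −0.27 for respiratory chain, −0.73 for heat shock and unfolded protein response and −0.73 for dissociation and immediate early. With genes filtered at a log2 CPM above 1 the medians were 0.77 for EGFR family and ligands and −0.41 for dendritic cell markers. With 1 library or tumor left out the range was 1.35 to 2.13 for neural stem and progenitor, −0.13 to 0.062 for Notch pathway, −0.50 to −0.23 for dendritic cell markers and −0.13 to −0.066 for respiratory chain. Of 310 genes named, 250 were called, of which 135 stayed called without the block, 108 without T3, 222 without T4, 179 without T5, 227 after quantile normalization and 246 in a fit of the 6 libraries alone, and 1 of them, *Actb*, changed direction, to 0.18 after quantile normalization. Other genes that changed direction had not passed the test. With voom weights they were *Areg* (0.006) and *LOC118568479* (−0.017). After quantile normalization they were *Fabp5* (0.077), *Pmvk* (0.017) and *Vim* (0.35). After centring they were *Hbegf* (−0.12), *LOC118568479* (−0.066) and *Nlrc5* (−0.035). With 1 tumor or library left out they ranged from −0.30 to 1.54 for *Adam23*, from −0.26 to 0.71 for *Aldh1l1*, from −0.61 to 0.49 for *Areg*, from −1.13 to 0.69 for *Btc*, from −0.81 to 0.31 for *Erbb2*, from −0.037 to 1.78 for *Erbb3*, from −0.12 to 0.072 for *Fabp5*, from −1.50 to 0.22 for *Fbln2*, from −0.19 to 0.51 for *Gfap*, from −0.44 to 0.31 for *Grm3*, from −0.38 to 0.13 for *Hapln2*, from −0.26 to 0.36 for *Hbegf*, from −0.70 to 1.09 for *LOC118568479*, from −0.37 to 0.30 for *Lcn2*, from −0.21 to 0.33 for *Nlrc5*, from −0.016 to 0.34 for *Nrg1*, from −0.25 to 0.25 for *Pmvk*, from −1.09 to 0.20 for *Slc17a7* and from −1.65 to 0.13 for *Thbs2*. Depth limits genes with few reads such as *Nrg4* and *Ltf*, and *Dll3* in GAL1+ cells, whose values rest on the reads given above.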

Other observations

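Promoter letters of further lists were counted in the 250 bases before the RefSeq start (GRCm38.p6). CCAAT or its reverse complement stood in 30 of 40 promoters of cell cycle genes (75%) and 12 of 16 of stem and progenitor genes (75%), against 40.1% of all genes with a promoter, and in 2 of 13 of pan-leukocyte genes (15.4%). GGAAGT stood in 10 of 17 promoters of macrophage genes (58.8%), 7 of 13 of pan-leukocyte genes (53.8%) and 3 of 21 of Notch pathway genes (14.3%), against 25.8%. These lists were chosen after their counts were seen, the counts have no test, and lists with a RefSeq promoter for under 80% of members were left out.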
